A study of Mus musculus with 27 samples.

Results

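The cecum and the ileum of mice fed arsenic were compared for how far each region departed from its own controls. The members were all 18 libraries of these regions, out of 27 in the series, chosen by their labelled tissue and diet and by no measured value. They formed 4 groups of male C57BL/6 mice: cecum arsenic (n = 5), cecum control (n = 4), ileum arsenic (n = 5) and ileum control (n = 4). Mice entered the study at 6 weeks of age, were acclimatized for 7 days and then ate their diet for 60 days. The arsenic feed held 30 µg of total arsenic per g, of which sodium arsenite made up 72.7%, the methylated compound DMA 19.0%, sodium arsenate 7.3% and the methylated compound MMA 1.0%. The control feed was the same standard diet without added arsenic.

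The ileum is the last stretch of the small intestine, where a villous epithelium takes up nutrients and bile acids and Paneth cells at the crypt base release antimicrobial proteins. The cecum is the pouch that opens the large intestine, where microbes ferment fiber and the epithelium absorbs short-chain fatty acids, salt and water. Arsenite binds protein thiols, and cells answer it with metallothioneins, chaperones, thioredoxin and glutathione enzymes and methylation by As3mt. The comparison asks whether that answer took the same form in both regions.

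Poly-A RNA was sequenced and each library held 15717600 to 18208518 counted reads, so depth differed little between groups. Genes with a count numbered 22351 to 23119 in cecum arsenic and 21832 to 22130 in cecum control libraries. The TMM scaling factors were 0.945 to 1.034 in cecum arsenic and 0.899 to 0.930 in cecum control libraries. Both measures were thus apart by diet in the cecum, and they overlapped in the ileum. Regional markers followed the labels. The summed level of 21 small intestine markers was 2263 to 3392 CPM (read counts scaled to a common library size) in cecum arsenic and 1794 to 2454 CPM in cecum control libraries, against 34780 to 70392 CPM in ileum arsenic and 49729 to 58056 CPM in ileum control libraries. Some libraries stood apart from their group. Fabp6, the ileal bile acid binding protein, stood at 5.98 and 1.26 CPM in ileum arsenic libraries 14 and 15, against 948 to 4036 CPM in the other ileum arsenic libraries and 214 to 4213 CPM in ileum control libraries. Cecum arsenic library 14 held the most Fabp6 of the cecum libraries, 66.6 CPM. The counts of several lists are therefore also given without these 3 libraries.

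Of 17035 genes tested, 2172 (12.8%) had an arsenic effect that differed between cecum and ileum by edgeR's quasi-likelihood test of the interaction at a Benjamini-Hochberg adjusted p under 0.05. Such genes are called below. The difference is the log2 fold change of arsenic over control in the cecum minus that in the ileum, so a gene called higher responded more positively in the cecum. Among all tested genes 652 (3.83%) were called higher and 1520 (8.92%) were called lower, and the median difference over all genes was 0.01. Beyond 2-fold, 254 genes were called higher and 169 lower. In the same fit arsenic changed 2022 genes (11.9%) in the cecum, 789 higher and 1233 lower, and 3051 genes (17.9%) in the ileum, 1758 higher and 1293 lower. That fit shared each gene's dispersion between the regions. Fitted apart, the common biological coefficient of variation (spread between replicates) was 0.13 in the cecum and 0.24 in the ileum. Under limma voom with weights per group the order was turned round, with 3972 genes in the cecum and 2091 in the ileum.

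Opposite signs were the usual form. Of the called genes, 1327 (61.1%) were lower with arsenic in the cecum and higher with arsenic in the ileum, and 563 (25.9%) were higher in the cecum and lower in the ileum, while over all tested genes these shares were 24.4% and 23.4%. A gene with effects of opposite sign has a larger difference by construction, so the shares describe the calls and are no test. Both effects passed on their own, with opposite signs, in 112 and 26 of these genes. Another 627 called genes passed on their own in the cecum alone and 1094 in the ileum alone, and 299 passed in neither. Across genes, which are not independent replicates, Spearman's rho between the cecum and ileum effects was 0.10.

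**Figure D1:**
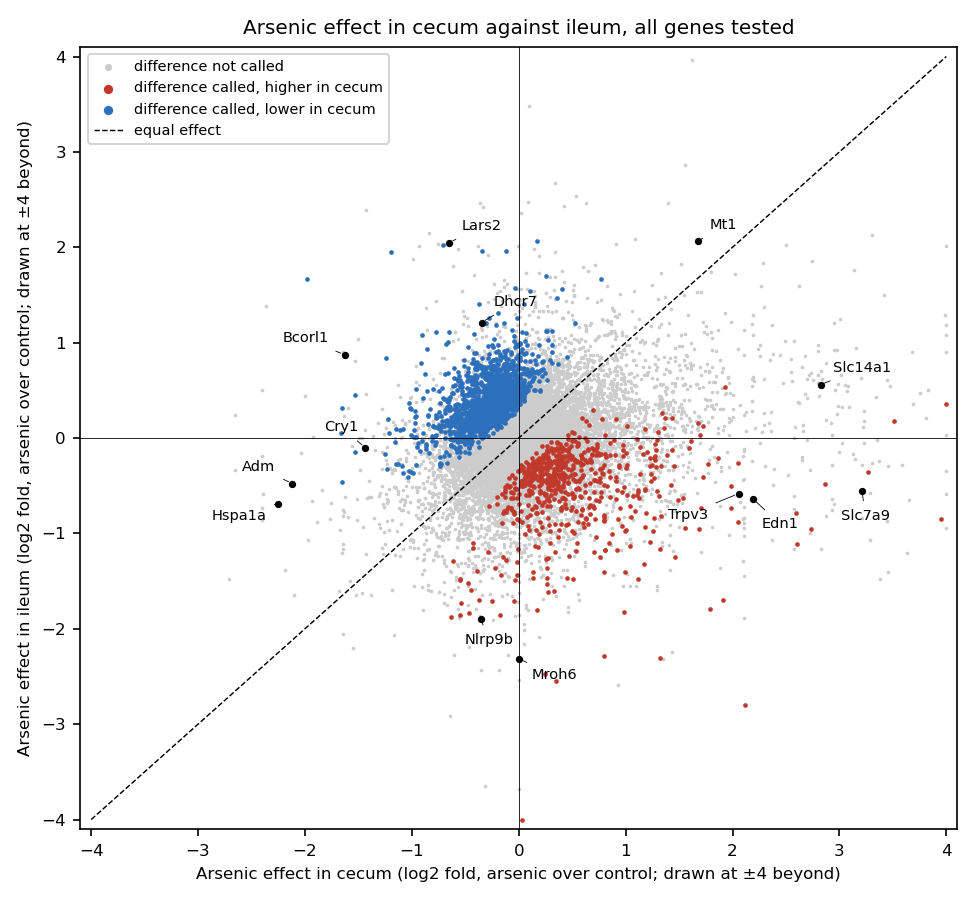
Log2 fold change of arsenic over control in the cecum (horizontal axis) and the ileum (vertical axis) for the 17035 genes tested, each point a gene. Red and blue points are the 652 genes called higher and the 1520 called lower in the cecum-minus-ileum difference, grey points were not called, the dashed line marks equal effects, and 9 genes beyond ±4 are drawn at the edge.

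The count of 2172 called genes depended on single libraries and on settings. It was 1241 without ileum control library 2, 1297 without cecum control library 1 and 1335 without cecum arsenic 14 and ileum arsenic 14 and 15. It was 344 with the smooth muscle marker score as a covariate. With upper-quartile scaling, which moved the median difference of all genes to 0.14, the split was 1161 higher and 910 lower, and in the cecum alone it was 1241 and 773. The split was 1045 and 1219 without ileum arsenic library 15 and 746 and 1004 without cecum arsenic library 15. In the ileum alone it was 1511 higher and 1836 lower without ileum arsenic library 15 and 1519 and 1592 with upper-quartile scaling. In the cecum alone it was 991 and 964 without cecum arsenic library 15.

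Bcorl1 (ENSMUSG00000036959), a BCL6 corepressor-like transcriptional corepressor, had the smallest p of all genes. It measured 11.6, 11.9, 9.64, 9.50 and 11.7 CPM in cecum arsenic libraries, against 38.0, 36.1, 31.0 and 29.4 CPM in cecum control libraries. It measured 17.3, 13.8, 19.5, 17.7 and 22.5 CPM in ileum arsenic libraries, against 9.85, 8.45, 9.67 and 11.7 CPM in ileum control libraries. The diets did not overlap in either region and their order was turned round. The gene fell by 1.63 ± 0.13 (SE, log2) in the cecum and rose by 0.87 ± 0.14 in the ileum, a difference of -2.50 ± 0.19 (edgeR adjusted p = 1.02e-06).

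The other 9 genes with the smallest p were Trip10, Ing1, Srsf9, Chd4, Ube2h, Trpv3, Igf2bp2, Kremen1 and Pias4, with edgeR adjusted p from 5.93e-05 to 0.000276. All but Trpv3 were lower in the difference. Trip10, an adaptor between membranes and actin, fell by 0.52 in the cecum and rose by 0.36 in the ileum, and Srsf9, a splicing factor, fell by 0.57 and rose by 0.60. Pias4, a SUMO ligase, fell by 0.62 in the cecum and rose by 0.47 in the ileum, and Kremen1, a receptor of the Wnt inhibitor Dickkopf, fell by 0.31 and rose by 0.74. Ing1, a reader of histone methylation, fell by 0.80 in the cecum, and its log2 fold change of 0.12 in the ileum did not pass. Ube2h, a ubiquitin-conjugating enzyme, and Igf2bp2, an mRNA-binding protein, likewise fell in the cecum, by 0.67 and 0.97. Chd4, the ATPase of the NuRD complex, rose by 0.96 in the ileum, and its log2 fold change of -0.29 in the cecum did not pass.

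Lrfn3, a cell-surface adhesion protein, and Slc16a13, of the monocarboxylate transporter family, repeated the reversal. Lrfn3 fell by 0.86 ± 0.15 in the cecum and rose by 0.94 ± 0.17 in the ileum (edgeR adjusted p = 0.000276 for the difference). Slc16a13 fell by 0.92 ± 0.15 in the cecum and rose by 0.78 ± 0.16 in the ileum (edgeR adjusted p = 0.000294 for the difference).

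Trpv3 (ENSMUSG00000043029), a calcium-permeable cation channel, showed the opposite order. It measured 6.70, 9.64, 10.9, 10.7 and 12.1 CPM in cecum arsenic libraries, against 2.72, 1.66, 3.08 and 2.18 CPM in cecum control libraries. It measured 3.47, 4.45, 4.69, 2.99 and 6.08 CPM in ileum arsenic libraries, against 7.47, 5.45, 7.27 and 5.70 CPM in ileum control libraries. Groups overlapped in the ileum and not in the cecum. Trpv3 rose by 2.06 ± 0.23 in the cecum, its ileum log2 fold change of -0.58 ± 0.22 did not pass, and the difference was 2.64 ± 0.31 (edgeR adjusted p = 0.000224). In a fit of all 27 libraries the difference no longer passed (edgeR adjusted p = 0.0842).

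**Figure D2:**
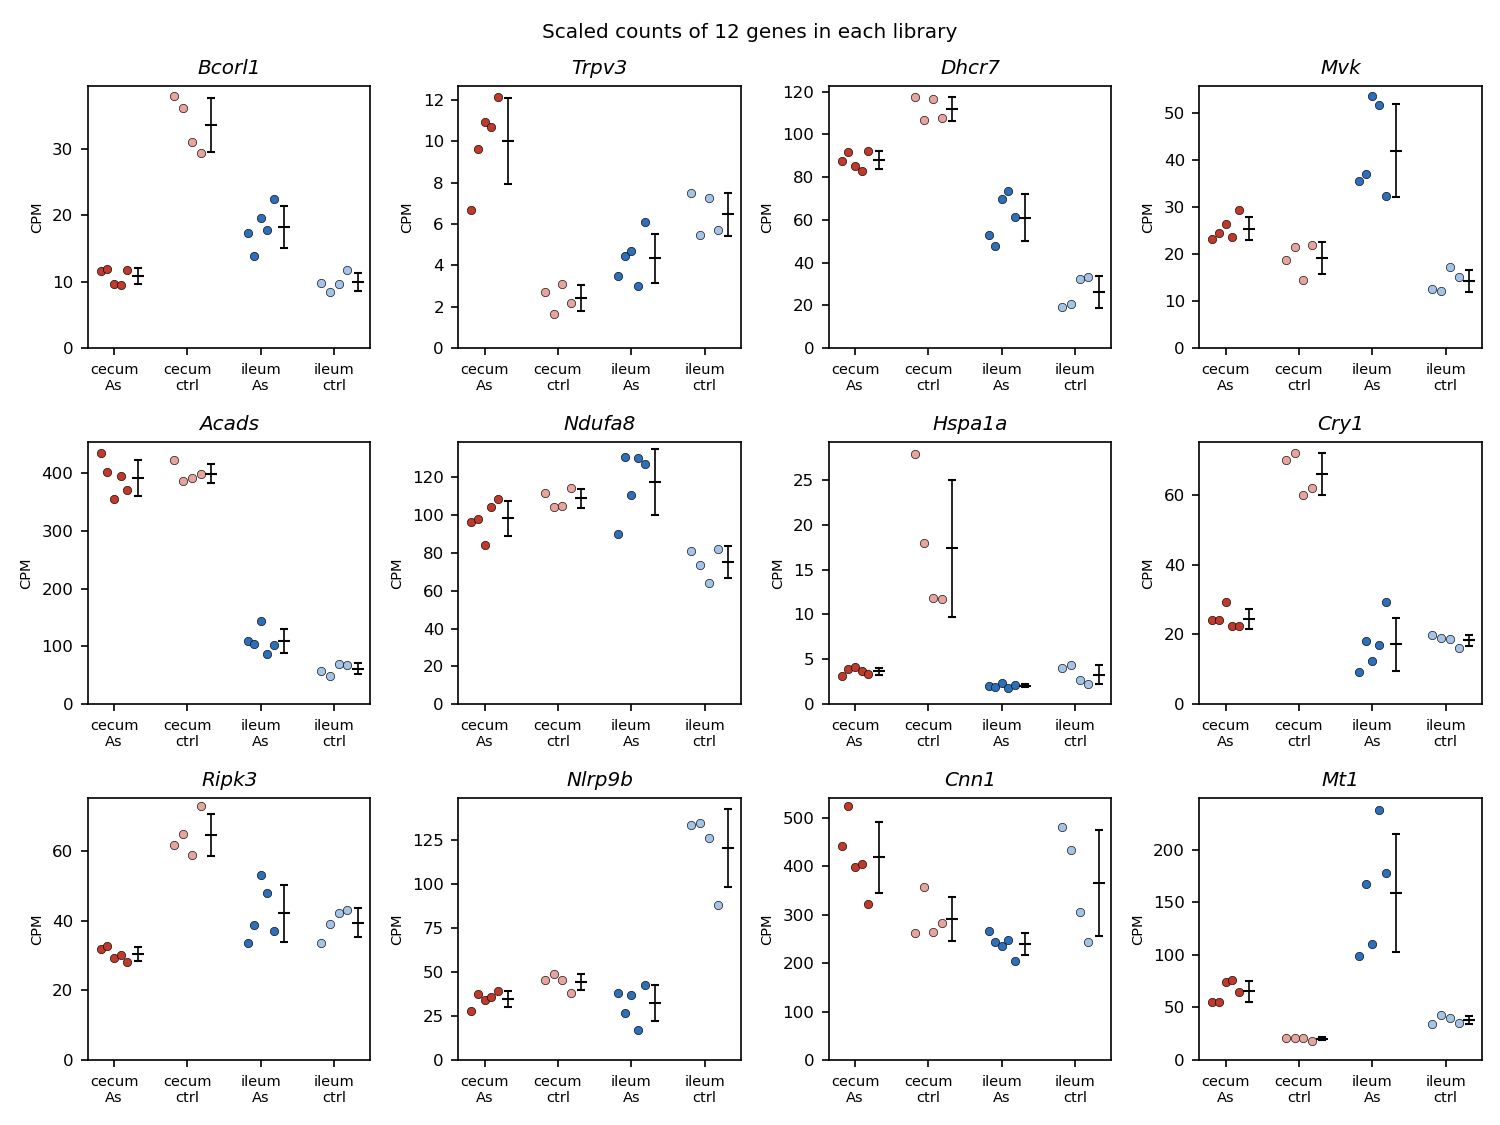
Scaled CPM (vertical axes, each from 0) of 12 genes in every library, with cecum arsenic, cecum control, ileum arsenic and ileum control from left to right. Bars give the mean ± SD over 5 arsenic or 4 control libraries, and Bcorl1 shows the diets in opposite order in the 2 regions.

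Among the largest differences, after predicted genes and genes under 1 CPM in either region were left out, were those of Adm, Edn1, Ptgfr and Slc14a1. Adm, which encodes the vasodilator adrenomedullin, measured 2.81 to 5.00 CPM in cecum arsenic and 11.98 to 20.9 CPM in cecum control libraries, against 1.72 to 2.57 CPM in ileum arsenic and 2.56 to 3.20 CPM in ileum control libraries. Its difference was -1.64 ± 0.28 (edgeR adjusted p = 0.00188). Edn1, which encodes the vasoconstrictor endothelin, measured 6.51 to 39.6 CPM in cecum arsenic and 2.58 to 7.01 CPM in cecum control libraries, against 0.941 to 1.78 CPM in ileum arsenic and 1.54 to 2.60 CPM in ileum control libraries. Its difference was 2.83 ± 0.64 (edgeR adjusted p = 0.00906), with the cecum groups overlapping and a loss of the call under limma voom with weights per group (adjusted p = 0.266). Ptgfr, the receptor of prostaglandin F2α, had a difference of 2.44 ± 0.47 (edgeR adjusted p = 0.00324). Slc14a1, a urea transporter, rose by 2.82 in the cecum, and its log2 fold change of 0.56 in the ileum did not pass. Both were low in the cecum, where Ptgfr averaged 2.79 CPM with arsenic and 0.849 CPM in controls. Slc14a1 averaged 3.35 CPM with arsenic and 0.468 CPM in controls there.

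Of the other large differences, several rested on few libraries or low levels. Slc7a9, a cystine and dibasic amino acid transporter subunit of the ileal brush border, had the largest positive value, 3.76 ± 1.15 (edgeR adjusted p = 0.0428). In the cecum it measured 0.304, 4.31, 2.05, 14.6 and 0.327 CPM with arsenic, against 0.181, 0.552, 0.937 and 0.242 CPM in controls, and library 14, which also held the most Fabp6, was the highest. Its call was lost in 13 of 18 fits that left out 1 library, and without cecum arsenic 14 the difference was 2.45 and did not pass. Lars2, a mitochondrial leucyl-tRNA synthetase, had the largest negative value, -2.70 ± 0.78. Its level was 1018 and 1166 CPM in ileum arsenic libraries 14 and 15, against 161 to 257 CPM in the other 3, and its call was lost without either of them and in 11 of 18 such fits.

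Also called higher were Ifi213, Klrb1, Mroh6, Lyz1 and Dnah10, with differences of 3.34, 2.49, 2.31, 2.15 and 2.00. The call of Ifi213 was lost without cecum control 1 or 2 or ileum control 2, and that of Mroh6 in 6 of 18 fits that left out 1 library. Also called lower were Sema7a, an axon guidance and immune semaphorin, at -2.08, Dusp5, a phosphatase of ERK, at -1.55, and Aldoc, a glycolytic aldolase, at -1.53. Aldoc rose by 1.26 in the ileum, and its log2 fold change of -0.28 in the cecum did not pass.

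Called genes under 1 CPM in one region and at 10 CPM or more in the other were taken apart from these. Slc28a3, a nucleoside transporter, measured 0.791 to 1.19 CPM in cecum arsenic and 0.201 to 0.368 CPM in cecum control libraries, against 15.9 to 31.3 CPM in ileum arsenic and 15.3 to 25.3 CPM in ileum control libraries. Its difference was 1.604 ± 0.38 (edgeR adjusted p = 0.0109), and the call was lost under limma voom with weights per group (adjusted p = 0.0514) and with all 27 libraries in the fit (edgeR adjusted p = 0.279). Dab1, a reelin adaptor seen mainly in the ileum, and Lrrc8e, a subunit of volume-regulated anion channels seen mainly in the cecum, had differences of 2.04 and -1.78, and the calls of Dab1 and Lrrc8e were lost in 5 and 11 of the 18 fits that left out 1 library.

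Smooth muscle genes moved apart more than any other list by share of members. The list of 18 contractile markers, all tested, had 11 called higher (61.1%, against 3.83% of all genes), and its median difference was 0.76, against 0.01 over all genes. All 18 had a positive effect in the cecum and a negative effect in the ileum, with medians of 0.32 and -0.42. On their own 2 rose in the cecum, where 4.63% of all genes did, and 6 fell in the ileum, where 7.59% did. In bulk tissue, fewer cells of a type and less RNA per cell cannot be told apart. The summed level of the list was 5429 to 8486 CPM in cecum arsenic and 4921 to 6376 CPM in cecum control libraries, against 6666 to 7481 CPM in ileum arsenic and 6765 to 12532 CPM in ileum control libraries.

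Cnn1, the actin-binding calponin of smooth muscle, measured 441, 524, 398, 404 and 322 CPM in cecum arsenic libraries, against 261, 357, 264 and 282 CPM in cecum control libraries. It measured 266, 242, 235, 248 and 204 CPM in ileum arsenic libraries, against 480, 434, 304 and 244 CPM in ileum control libraries. The diets overlapped in both regions, and the 2 highest values of the ileum were those of control libraries 1 and 2. Cnn1 fell by 0.61 ± 0.17 in the ileum, and its cecum log2 fold change of 0.52 ± 0.17 did not pass. The difference was 1.13 ± 0.24 (edgeR adjusted p = 0.00599). Synpo2, an actin bundling protein, Hspb6, a small heat shock protein of muscle, and Acta2, smooth muscle actin, had differences of 0.98, 0.85 and 0.90, Tpm1, tropomyosin, 0.66, and Des, desmin, 0.93. Of the 18 members, 6 were called without ileum control 2 and 3 without cecum arsenic 14 and ileum arsenic 14 and 15, and Des lost its call without ileum control 2. The part of tissue composition in the other differences was not tested. The muscle score came from the list's 18 markers, whose arsenic effects all had opposite signs in cecum and ileum. As a covariate it therefore overlaps the difference being tested, and a call lost under it does not measure the part of muscle content. With the muscle score as a covariate edgeR called 344 of all genes. It called no member of the respiratory chain, NRF2, junction, interferon, Paneth cell, colonic transport, clock and metal lists described below. These lists had 39, 25, 27, 44, 20, 26, 20 and 20 members tested. Without that covariate edgeR called 13, 7, 5, 5, 3, 5, 2 and 3 of them, and DESeq2 called 16, 7, 6, 9, 7, 5, 2 and 5. Members with an unadjusted p under 0.05 in the covariate fit numbered 15, 8, 4, 9, 5, 7, 3 and 4. In the main fit they numbered 18, 11, 9, 12, 11, 6, 2 and 7.

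**Figure D3:**
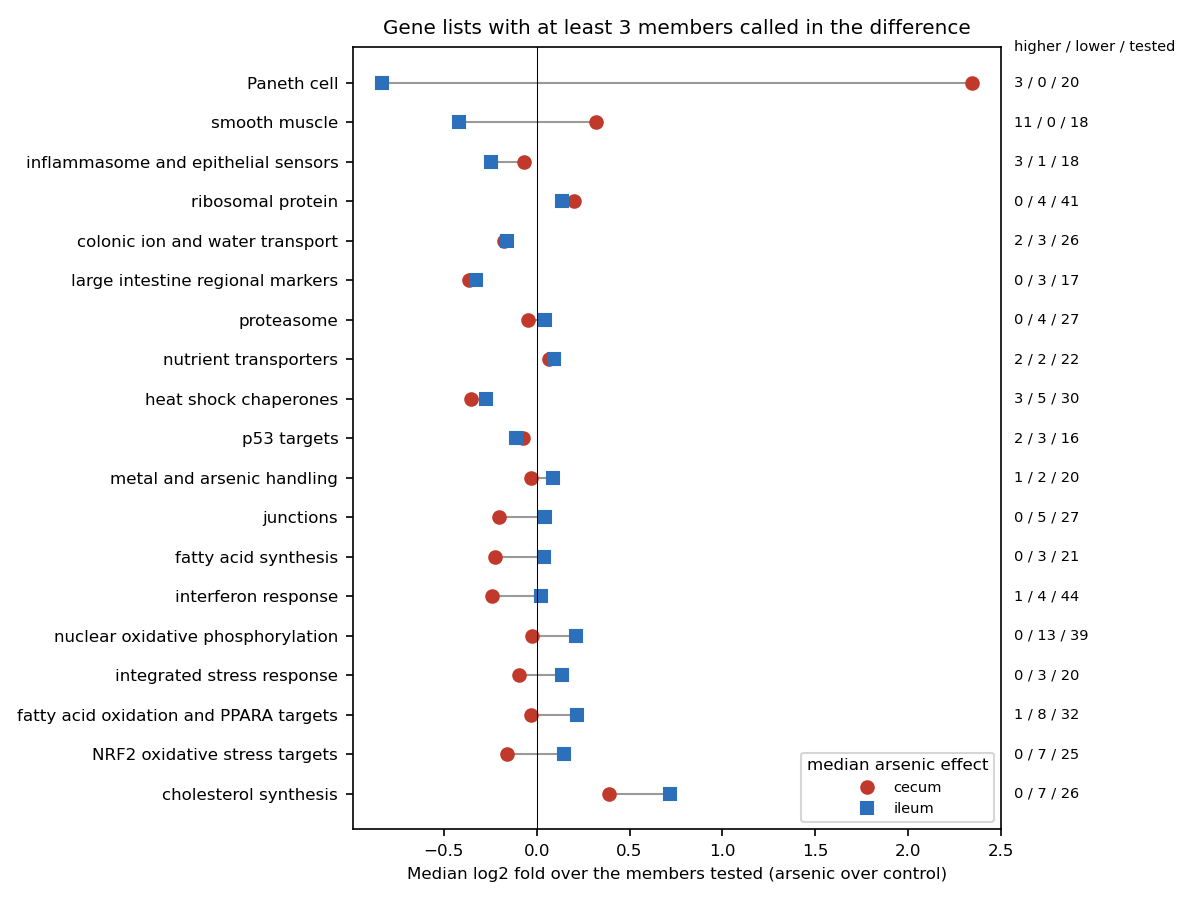
Median log2 fold change of arsenic over control in the cecum (red circles) and in the ileum (blue squares) for the 19 gene lists with at least 3 members called, ordered by the median difference. Figures at the right give members called higher, called lower and tested, with smooth muscle at 11, 0 and 18 and nuclear oxidative phosphorylation at 0, 13 and 39.

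Fewer cholesterol synthesis genes rose with arsenic in the cecum than in the ileum. Of 26 members tested, 8 rose and 1 fell in the cecum, where 4.63% of all genes rose, and 21 rose and 1 fell in the ileum, where 10.3% of all genes rose. The median effect was 0.39 in the cecum and 0.72 in the ileum. Called in the difference were 7 members (26.9%), all lower, where 8.92% of all genes were called lower, and the list's median difference was -0.37. They were Dhcr7, the last enzyme of the pathway, the mevalonate kinase Mvk, the phosphomevalonate kinase Pmvk, the decarboxylase Mvd, the sterol isomerase Ebp, and the regulators Srebf2 and Insig1. Srebf2 encodes the transcription factor that drives the pathway and Insig1 the protein that holds it back in the endoplasmic reticulum.

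Dhcr7 (ENSMUSG00000058454) measured 87.5, 92.0, 85.3, 83.1 and 92.2 CPM in cecum arsenic libraries, against 117, 107, 117 and 107 CPM in cecum control libraries. It measured 52.96, 47.5, 69.5, 73.6 and 61.3 CPM in ileum arsenic libraries, against 19.2, 20.7, 32.5 and 33.0 CPM in ileum control libraries. No diet overlapped with the other in either region. Dhcr7 rose by 1.21 ± 0.15 in the ileum, its cecum log2 fold change of -0.35 ± 0.15 did not pass, and the difference was -1.56 ± 0.21 (edgeR adjusted p = 0.000559).

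Mvk (ENSMUSG00000041939) measured 23.2, 24.5, 26.3, 23.6 and 29.3 CPM in cecum arsenic libraries, against 18.8, 21.6, 14.5 and 21.9 CPM in cecum control libraries. It measured 35.6, 36.9, 53.7, 51.6 and 32.3 CPM in ileum arsenic libraries, against 12.6, 12.2, 17.3 and 15.1 CPM in ileum control libraries. Arsenic libraries were higher without overlap in both regions. Mvk rose by 1.56 ± 0.16 in the ileum, and its cecum log2 fold change of 0.40 ± 0.16 did not pass. The difference was -1.15 ± 0.23 (edgeR adjusted p = 0.00362). Srebf2 had 227 to 274 CPM in cecum arsenic and 235 to 280 CPM in cecum control libraries, against 199 to 334 CPM in ileum arsenic and 90.7 to 141 CPM in ileum control libraries, with a difference of -1.06 ± 0.21 (edgeR adjusted p = 0.00406). Stard4, a cholesterol carrier, rose in both regions, and its difference of 0.27 did not pass. Ebp lost its call without cecum control 1 or ileum control 2 or 3, and Insig1 without cecum arsenic 15, cecum control 4 or 5 or ileum control 1 or 2. With the muscle score as a covariate 1 member was called higher and 1 lower.

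The stretches before the starts of Mvk and Dhcr7 are shown because both genes rose more in the ileum and hold the CCAAT box, which binds the factor NF-Y, a partner of the SREBP proteins at sterol genes. Each is the 250 bases before a RefSeq start in build GRCm38.p6, on the gene's strand, with matches to CCAAT on either strand (ATTGG on the other) in capitals. The Mvk window is chr5:114444019-114444268 on the plus strand, and the Dhcr7 window, before the third of its 3 starts in the table, is chr7:143829964-143830213 on the plus strand.
Mvk: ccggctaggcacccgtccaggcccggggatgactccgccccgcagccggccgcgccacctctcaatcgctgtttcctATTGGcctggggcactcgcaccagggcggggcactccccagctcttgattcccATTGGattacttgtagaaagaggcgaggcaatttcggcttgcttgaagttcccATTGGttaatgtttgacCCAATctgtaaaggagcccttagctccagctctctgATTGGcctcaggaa
Dhcr7: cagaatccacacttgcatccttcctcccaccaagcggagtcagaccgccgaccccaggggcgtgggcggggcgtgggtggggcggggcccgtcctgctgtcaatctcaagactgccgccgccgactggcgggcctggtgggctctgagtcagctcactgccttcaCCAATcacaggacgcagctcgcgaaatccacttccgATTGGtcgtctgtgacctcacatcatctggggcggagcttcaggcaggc
Mvk holds 5 matches and Dhcr7 holds 2, while the windows of the other 2 Dhcr7 starts hold 0. Of 32851 such windows in the table, 33.8% hold at least 1, so a match is common and marks no site of binding.

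Genes of fatty acid oxidation and other targets of the lipid sensor PPARA had most of their changes in the ileum. Of 32 members tested, 8 were called lower (25%) and 1 higher in the difference, against 8.92% and 3.83% of all genes, and the list's median difference was -0.32. In the cecum 2 members fell, where 7.24% of all genes fell, and in the ileum 11 rose and 1 fell, where 10.3% and 7.59% of all genes did. Acads, the short-chain acyl-CoA dehydrogenase, measured 434, 402, 355, 394 and 370 CPM in cecum arsenic libraries, against 422, 385, 391 and 398 CPM in cecum control libraries. It measured 109, 104, 144, 87.3 and 103 CPM in ileum arsenic libraries, against 57.6, 49.03, 69.4 and 68.0 CPM in ileum control libraries. The diets overlapped in the cecum and not in the ileum, and the difference was -0.87 ± 0.17 (edgeR adjusted p = 0.00408).

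Bdh1, a mitochondrial dehydrogenase, and Acaa2, Etfa and Hadha, of the β-oxidation chain, had differences of -0.71, -0.65, -0.47 and -0.48, and Acot1, an acyl-CoA thioesterase, -1.44. Hadha lost its call in 7 of 18 fits that left out 1 library. Vnn1, a pantetheinase, was the member called higher, at 1.53, with 55.2 to 166 CPM in ileum arsenic and 241 to 355 CPM in ileum control libraries. With the muscle score as a covariate 3 members were called lower, and the call of Vnn1 was lost. The calls of Vnn1 and Acaa2 were lost with all 27 libraries in the fit.

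Nuclear genes of the respiratory chain formed the list with the most calls. Of 39 members tested, 13 (33.3%) were called, all lower, where 8.92% of all genes were called lower, and the median difference was -0.27. In the cecum 14 of 39 had an effect above 0, and the 13 called members had cecum effects from -0.16 to 0.01. In the ileum 31 of 39 had an effect above 0, and 17 rose, where 10.3% of all genes rose. Ndufa8, a subunit of complex I, measured 96.5, 97.8, 84.2, 104 and 109 CPM in cecum arsenic libraries, against 112, 105, 105 and 114 CPM in cecum control libraries. It measured 90.1, 131, 111, 130 and 127 CPM in ileum arsenic libraries, against 81.1, 73.8, 64.1 and 82.2 CPM in ileum control libraries. The diets overlapped in the cecum and not in the ileum, and the difference was -0.79 ± 0.15 (edgeR adjusted p = 0.00319).

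Uqcrc1 and Cyc1, of complex III, had differences of -0.88 and -0.62, and Cox5a and Cox6a1, of complex IV, -0.65 and -0.77. The count of 13 was 5 without ileum control 2 (which also ended the call of Cyc1), 7 without ileum control 3 or cecum control 5, and 8 without ileum arsenic 14, cecum arsenic 11 or cecum control 2 or 4. It was 4 without cecum arsenic 14 and ileum arsenic 14 and 15, 8 with upper-quartile scaling and 5 with GC offsets.

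**Figure D4:**
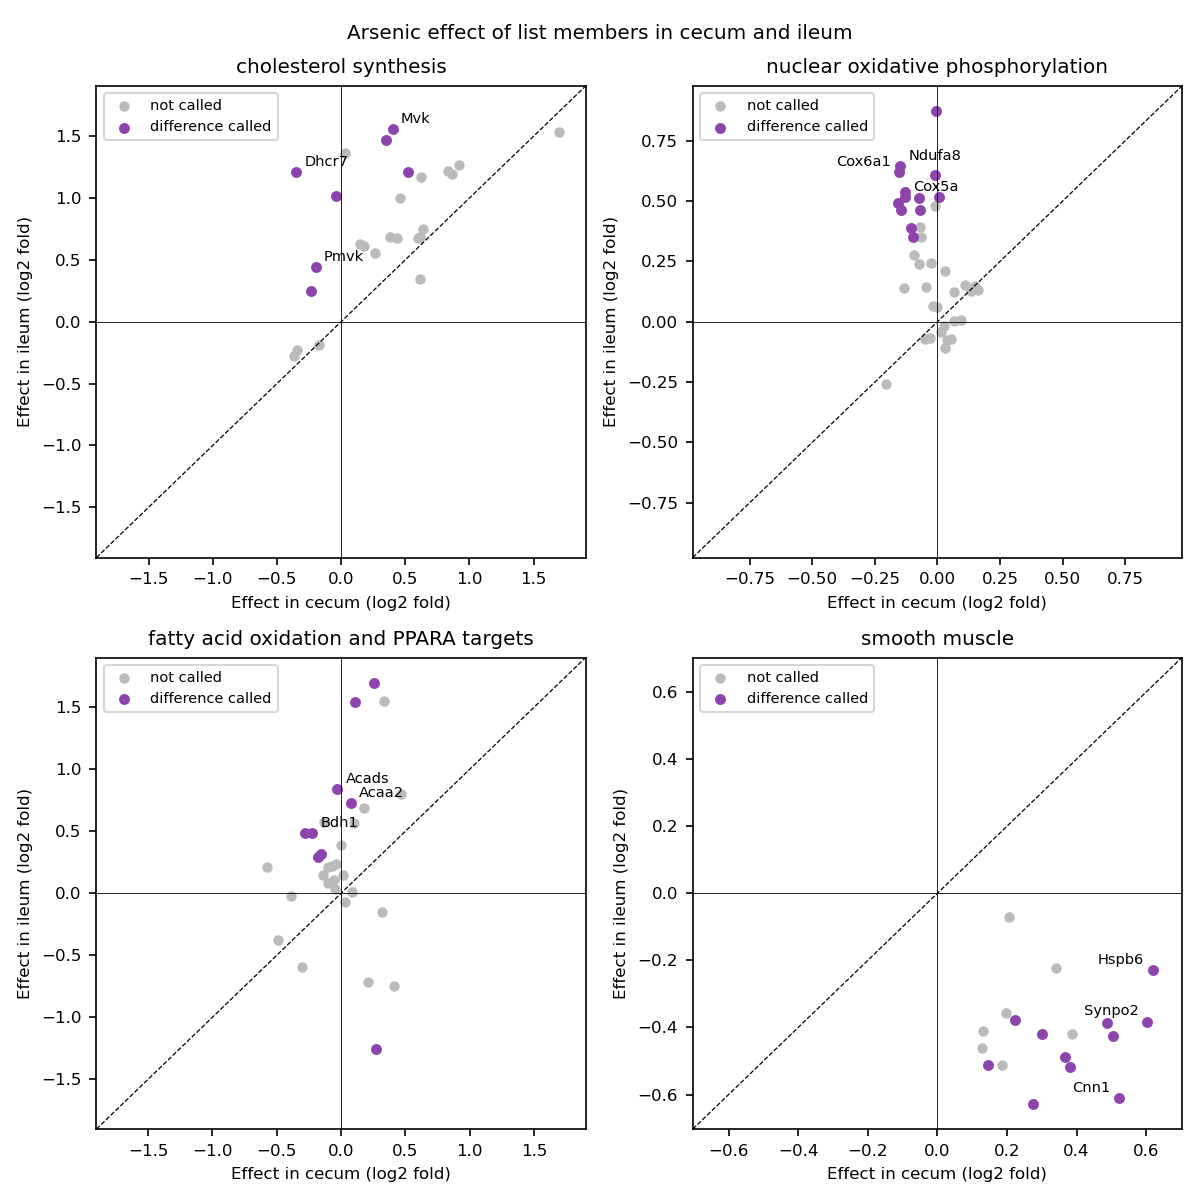
Log2 fold change of arsenic over control in the cecum (horizontal axes) and in the ileum (vertical axes) for the members of 4 lists, each point a gene and the dashed line equal effects. Smooth muscle members lie right of and below 0 in all 18 cases, while called members of the other lists lie above the line, apart from Vnn1.

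Mt1 (ENSMUSG00000031765), a metallothionein that binds arsenic and metals, measured 55.3, 55.4, 74.3, 76.4 and 64.6 CPM in cecum arsenic libraries, against 21.3, 21.4, 20.8 and 18.3 CPM in cecum control libraries. It measured 98.8, 168, 111, 238 and 178 CPM in ileum arsenic libraries, against 34.0, 42.4, 40.2 and 35.3 CPM in ileum control libraries. Arsenic libraries were higher without overlap in both regions. Mt1 rose by 1.67 ± 0.21 in the cecum and by 2.06 ± 0.21 in the ileum, and the difference of -0.39 ± 0.28 did not pass (edgeR adjusted p = 0.391).

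Of 20 members of the metal and arsenic list, 1 was called higher and 2 lower in the difference, shares near the 3.83% and 8.92% of all genes. Slc20a1 and Slc20a2 are phosphate transporters, of the kind that carry arsenate in place of phosphate. Slc20a1 rose by 0.66 ± 0.11 in the ileum, its cecum log2 fold change of -0.04 ± 0.10 did not pass, and the difference was -0.70 ± 0.15 (edgeR adjusted p = 0.00601). Slc20a2 rose by 0.70 ± 0.07 in the cecum and by 0.29 ± 0.07 in the ileum, a difference of 0.40 ± 0.10 (edgeR adjusted p = 0.0156). Gsto1, a glutathione transferase that reduces pentavalent arsenic, measured 273 to 299 CPM in cecum arsenic and 300 to 315 CPM in cecum control libraries, against 276 to 481 CPM in ileum arsenic and 243 to 259 CPM in ileum control libraries, and its difference was -0.66 ± 0.16 (edgeR adjusted p = 0.0141). With all 27 libraries in the fit the calls of Slc20a1 and Gsto1 were lost (edgeR adjusted p = 0.484 and 0.115). As3mt, the arsenic methyltransferase, Abcc2, an exporter of arsenic-glutathione conjugates, and Aqp3, an aquaglycerol channel that passes arsenite, had differences of -0.37, 0.96 and -0.36, none past the test.

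Targets of NRF2, the factor that answers electrophiles and oxidants, were called lower in 7 of 25 members (28%), where 8.92% of all genes were called lower, with a median difference of -0.34. Txnrd1, thioredoxin reductase, measured 223, 257, 215, 237 and 225 CPM in cecum arsenic libraries, against 381, 398, 359 and 389 CPM in cecum control libraries. It measured 222, 239, 271, 261 and 323 CPM in ileum arsenic libraries, against 205, 232, 249 and 287 CPM in ileum control libraries. It fell by 0.72 ± 0.11 in the cecum, its ileum log2 fold change of 0.11 ± 0.11 did not pass, and the difference was -0.84 ± 0.15 (edgeR adjusted p = 0.00232).

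Abcc3, a basolateral exporter of conjugates, rose by 0.68 ± 0.10 in the ileum, its cecum log2 fold change of -0.08 ± 0.09 did not pass, and the difference was -0.76 ± 0.14 (edgeR adjusted p = 0.00225). Keap1, the NRF2 inhibitor, and the pentose phosphate enzymes Taldo1 and Pgd had differences of -0.60, -0.56 and -0.50, and the ferritin chains Ftl1 and Fth1 -0.57 and -0.54. Pgd, Ftl1 and Fth1 lost their calls in 11, 10 and 16 of 18 fits that left out 1 library. Taldo1, Ftl1 and Fth1 lost theirs with all 27 libraries in the fit. Hmox1, Nqo1, Gclc and Slc7a11, other targets of the factor, had differences of -0.19, -0.26, 0.23 and 0.66, none past the test. The list's count was 4 without cecum arsenic 11, 13 or 15, without cecum control 1 or 4 and without ileum control 2 or 3. It was also 4 without cecum arsenic 14 and ileum arsenic 14 and 15, with all 27 libraries and with upper-quartile scaling.

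Of 30 heat shock chaperones, 14 fell and 1 rose with arsenic in the cecum, where 7.24% of all genes fell, and 11 fell in the ileum, where 7.59% did. In the difference 3 were called higher and 5 lower, where 3.83% and 8.92% of all genes were, and the median was -0.09. Hspa1a and Hspa1b are neighboring, near-identical genes of the inducible HSP70, so reads may have been split between them and their values are uncertain. Hspa1a measured 3.17 to 4.16 CPM in cecum arsenic and 11.7 to 27.9 CPM in cecum control libraries, against 1.84 to 2.29 CPM in ileum arsenic and 2.20 to 4.34 CPM in ileum control libraries. It fell by 2.25 ± 0.24 in the cecum, its ileum log2 fold change of -0.69 ± 0.25 did not pass, and the difference was -1.57 ± 0.35 (edgeR adjusted p = 0.00731), lost under limma voom with weights per group (adjusted p = 0.0796). Hspa1b fell by 2.19 ± 0.23 in the cecum and by 1.38 ± 0.24 in the ileum, and its difference of -0.81 ± 0.34 did not pass (edgeR adjusted p = 0.126).

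Both promoters are shown because the pair differed in the call while the stretches before their starts are nearly the same. The windows are chr17:34972157-34972406 for Hspa1a and chr17:34959239-34959488 for Hspa1b, both on the minus strand of GRCm38.p6, from RefSeq. Capitals mark GAANNTTC, the paired core of the heat shock element, which reads the same on both strands.
Hspa1a: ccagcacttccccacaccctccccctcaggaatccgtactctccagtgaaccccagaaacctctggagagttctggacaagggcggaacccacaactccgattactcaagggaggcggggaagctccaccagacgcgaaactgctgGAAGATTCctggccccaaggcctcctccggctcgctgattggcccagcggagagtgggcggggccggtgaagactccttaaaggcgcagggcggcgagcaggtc
Hspa1b: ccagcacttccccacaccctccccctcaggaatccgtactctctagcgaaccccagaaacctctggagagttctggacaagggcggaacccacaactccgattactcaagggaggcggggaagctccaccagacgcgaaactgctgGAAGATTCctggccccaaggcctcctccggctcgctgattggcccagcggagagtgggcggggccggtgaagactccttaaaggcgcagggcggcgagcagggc
Each holds 1 match, which begins 104 bases before the start, and 247 of 250 aligned bases are identical. The motif occurs in 6.69% of the 32851 windows.

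Bag3, a partner of HSP70, the HSP90 Hsp90ab1 and the co-chaperones Stip1 and Fkbp4 were called lower, with differences of -0.85, -0.82, -0.47 and -0.51. Dnajb5, an HSP40, and the small heat shock proteins Hspb1 and Hspb8 were called higher, at 0.85, 0.95 and 0.73. Hspa8, the constitutive HSP70, fell by 1.11 in the cecum and by 0.66 in the ileum, and its difference of -0.45 did not pass (edgeR adjusted p = 0.0535). Stip1 lost its call without cecum control 1, Hsp90ab1 without cecum control 1 or 5 or ileum control 1 or 2, Fkbp4 in 14 and Hspb8 in 10 of 18 fits that left out 1 library. The 5 lower calls were 2 with the muscle score as a covariate, 2 without cecum control 1 and 3 without cecum control 5 or ileum control 1 or 2. With the muscle score as a covariate no member was called higher by edgeR and 1 had an unadjusted p under 0.05, where DESeq2 called 3 without that covariate.

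Sensors of microbes and cell death had 3 of 18 members called higher and 1 lower, against 3.83% and 8.92% of all genes, and a median difference of 0.35. The higher count was 6 without ileum arsenic 13. It was 1 with GC offsets, with the muscle score as a covariate and without any 1 of cecum arsenic 13, 14 and 15, cecum control 1, 2 and 5, ileum arsenic 12 and 14 and ileum control 2 and 3. Ripk3, a kinase of necroptosis, measured 31.96, 32.8, 29.2, 30.0 and 28.0 CPM in cecum arsenic libraries, against 61.7, 64.9, 58.7 and 72.9 CPM in cecum control libraries. It measured 33.6, 38.7, 53.1, 47.8 and 37.1 CPM in ileum arsenic libraries, against 33.6, 38.9, 42.2 and 43.0 CPM in ileum control libraries. It fell by 1.09 ± 0.12 in the cecum, its ileum log2 fold change of 0.09 ± 0.12 did not pass, and the difference was -1.18 ± 0.17 (edgeR adjusted p = 0.000567).

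Nlrp9b, an epithelial inflammasome sensor of viral RNA, went the other way. It measured 27.7, 37.3, 33.9, 35.5 and 38.9 CPM in cecum arsenic libraries, against 45.1, 48.6, 45.6 and 37.9 CPM in cecum control libraries. It measured 38.0, 26.8, 37.2, 16.8 and 42.6 CPM in ileum arsenic libraries, against 133, 135, 126 and 87.9 CPM in ileum control libraries. The diets overlapped in the cecum and not in the ileum, and the difference was 1.54 ± 0.29 (edgeR adjusted p = 0.00296). Naip2 and Naip5, which detect bacterial secretion and flagellin proteins, were also called higher, at 0.54 and 0.69. They lost their calls in 11 and 14 of 18 fits that left out 1 library. Nlrp9b and Naip5 lost their calls with the muscle score as a covariate, and Naip2 kept its call. Of 44 interferon genes, whose median difference was -0.25, Cxcl9, a chemokine, was called higher at 1.52, and Dhx58, Oas1a, Oasl2 and Tap1, of RNA sensing and antigen transport, were called lower at -1.18, -1.16, -1.36 and -1.18, so 1 and 4 of 44 were called where 3.83% and 8.92% of all genes were. The count of 4 was 1 without cecum control 1 or 2 or without the 3 libraries named above, and 8 without ileum arsenic 11. It was 2 without any 1 of the cecum arsenic libraries, cecum control 5, ileum arsenic 12, 13 and 15 and ileum control 1, 2 and 3. Oas1a lost its call without cecum control 1 or 2, and Oasl2 and Tap1 each in 15 of 18 such fits.

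Epithelial genes of ion transport were called in both directions, and those of cell contacts in the lower direction. Of 26 genes of colonic ion and water transport 2 were called higher and 3 lower, against 3.83% and 8.92% of all genes, with a median difference of 0.02. The higher ones, named after their values were seen, were the chloride channel Best2 and the bicarbonate transporter Slc4a4, at 4.37 and 0.48. Best2 was at 0 in all ileum arsenic libraries and at 0 to 0.278 CPM in ileum control libraries, so its fitted value is no bound, and it lost its call without ileum control 1 or 2. Slc4a4 lost its call in 13 of 18 fits that left out 1 library. Without the 3 libraries edgeR called no member higher and 6 had an unadjusted p under 0.05, while DESeq2 on all 18 libraries called 2. Car4, a carbonic anhydrase, and Scnn1a, a subunit of the epithelial sodium channel, had differences of -1.24 and -0.87. Scnn1a fell by 0.33 in the cecum and rose by 0.54 in the ileum. With all 27 libraries in the fit its call was lost, and the list's lower count of 3 was 1. Of 27 junction genes, 5 (18.5%) were called, all lower, where 8.92% of all genes were called lower, with a median of -0.21, among them the cadherin Cdh1 at -0.64, plakoglobin Jup at -0.82 and the claudin Cldn23 at -0.86. The junction count was 2 without the 3 libraries or with GC offsets, 1 without ileum control 2, where Jup and Cldn23 lost their calls, and 3 without any 1 cecum library other than arsenic 12 and without ileum arsenic 15 or ileum control 1. Cldn23 also lost its call without cecum control 4 or ileum control 1. Slc51b, a subunit of the basolateral bile acid exporter, was called higher, at 1.22 ± 0.26 (edgeR adjusted p = 0.00628).

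Of 20 Paneth cell genes tested, 19 had an effect above 0 in the cecum and 1 had in the ileum. In the cecum, where levels were low and varied between arsenic libraries, 2 rose, where 4.63% of all genes did. In the ileum the median effect was -0.83 and 3 fell, where 7.59% of all genes did. Lyz1, the lysozyme of these cells, measured 16.2, 13.9, 24.1, 29.5 and 7.90 CPM in cecum arsenic libraries, against 8.15, 6.13, 8.36 and 6.59 CPM in cecum control libraries. It measured 1281 to 4809.8 CPM in ileum arsenic and 3692 to 6786.5 CPM in ileum control libraries, and the difference was 2.15 ± 0.50 (edgeR adjusted p = 0.0113). The summed level of the 20 Paneth markers was 42.1 to 591 CPM in cecum arsenic and 38.1 to 65.2 CPM in cecum control libraries, and 5 of them were at 0 in all cecum control libraries. The sum was 10044 to 20475 CPM in ileum arsenic and 19178 to 33278 CPM in ileum control libraries. Lyz1, Ang4 and Nupr1, 3 of 20 (15%), were called higher, where 3.83% of all genes were, and the fitted median difference of 3.07 rests on markers near 0 in the cecum and is no bound. Without the 3 libraries and with all 27 libraries edgeR called no member, 3 and 5 had an unadjusted p under 0.05, and DESeq2 on the 18 called 7. The count was 5 without cecum arsenic 15 and 1 without cecum control 1, 2 or 5 or ileum control 1 or 3. Ang4 and Nupr1 lost their calls in 6 and 13 of 18 fits that left out 1 library, while Lyz1 kept its call in each. Nupr1 fell by 0.71 in the ileum, and its log2 fold change of 0.27 in the cecum did not pass.

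Of 20 circadian clock genes tested, 1 was called higher and 1 lower, where 3.83% and 8.92% of all genes were. Cry1, a repressor of the circadian clock, measured 22.3 to 29.3 CPM in cecum arsenic and 60.1 to 72.2 CPM in cecum control libraries, against 9.26 to 29.3 CPM in ileum arsenic and 15.96 to 19.7 CPM in ileum control libraries, and its difference was -1.33 ± 0.31 (edgeR adjusted p = 0.00997). Nr1d2, another clock repressor, was called higher at 0.76, and its call was lost with GC offsets. Arntl, the clock activator, fell by 1.11 in the cecum and by 0.90 in the ileum, and its difference of -0.21 did not pass. The time of day at which tissue was taken is not given in the sources used here. Of 16 p53 targets, whose median difference was -0.10, Trp53inp1 and Ccng1 were called higher, at 0.66 and 0.46, and Gdf15, Sesn2 and Tnfrsf10b lower, at -1.89, -0.99 and -0.99, where 3.83% and 8.92% of all genes were. Trp53inp1, Ccng1 and Sesn2 lost their calls with GC offsets. Gdf15, a stress-induced cytokine, fell by 0.78 in the cecum and rose by 1.11 in the ileum at levels of 0.334 to 3.25 CPM, and Tnfrsf10b lost its call in 12 of 18 fits that left out 1 library.

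In 13 of the 49 lists no member was called by edgeR, among them B cells, plasma cells, macrophages, tuft and enteroendocrine cells, enteric neurons, cell cycle and cytochrome P450. They held 201 tested genes, of which 28 had an unadjusted p under 0.05 and DESeq2 called 10. Over all 17035 genes tested these counts were 4757 and 2655, larger shares in both cases. Of 41 ribosomal protein genes 4 (9.76%) were called, all lower, a share near the background of 8.92%, with Rplp2 at -0.95.

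The difference also followed the base composition of transcripts. The median transcript GC content was 54.2% in genes called lower, 44.9% in genes called higher and 49.2% in genes not called. In the bin of genes with the lowest GC content, of 5 equal bins, the median effect was 0.05 in the cecum and -0.16 in the ileum, and in the bin with the highest it was -0.02 and 0.20. By library, rho across genes between GC content and the deviation from the region's mean was -0.096 to 0.033 in cecum arsenic and -0.053 to 0.239 in cecum control libraries, against -0.006 to 0.201 in ileum arsenic and -0.282 to -0.055 in ileum control libraries, and the diets did not overlap in the ileum. With offsets for GC content in each library, an alternative added after the data were seen, 1472 genes were called (463 higher, 1009 lower), of which 1241 were among the 2172. The part of base composition in any single difference was not tested.

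**Figure D5:**
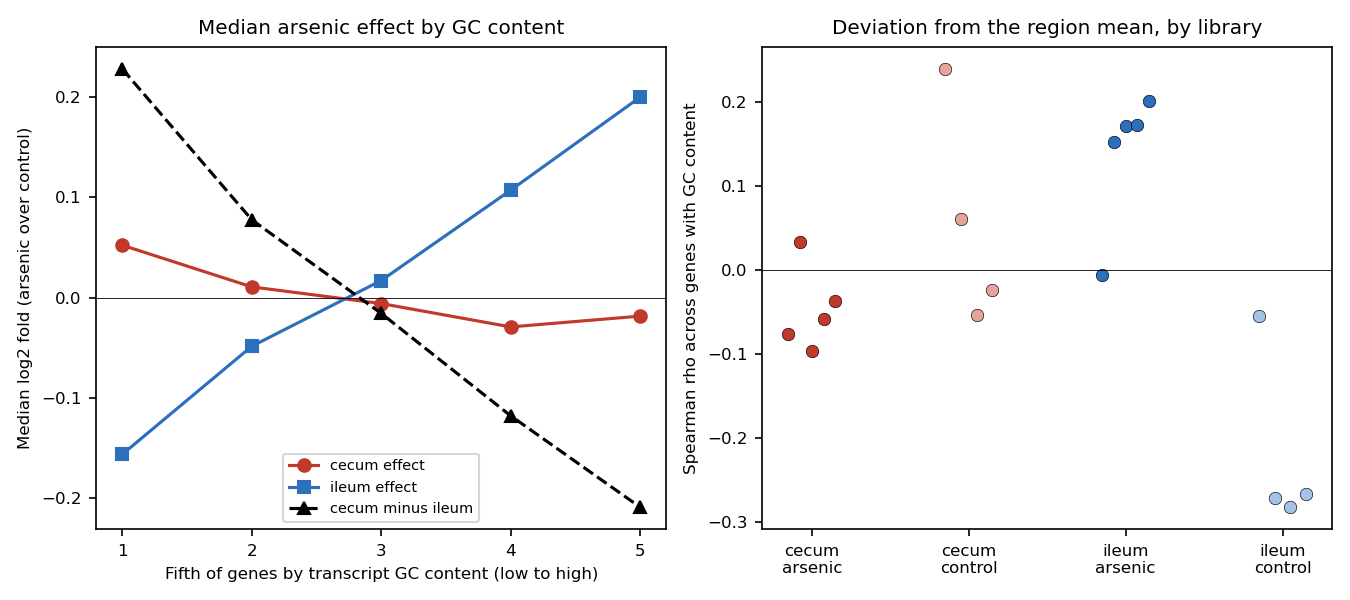
Left, median log2 fold change of arsenic over control in the cecum and in the ileum, and their difference, in 5 equal bins of genes by transcript GC content. Right, Spearman's rho across genes between GC content and each library's deviation from its region's mean, with ileum arsenic libraries from -0.006 to 0.201 above ileum control libraries.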

How the data were processed

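Poly-A RNA of cecum and ileum was sequenced as 150 bp reads, and the authors deposited raw counts of reads per Ensembl gene. The submitters' processing notes list HISAT2 2.1.0, SAMtools, HTSeq 0.6.0 and DESeq2 1.6.3, with no roles; the genome build and annotation are not given in the sources used here, and counting is not stated to use strand. The labels call the animals mice, while the design text speaks of rats. Nothing states that libraries of equal number came from 1 mouse, and the main fit assumed that cecum and ileum libraries were independent. The p-values measure the spread between these libraries under that assumption.

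From these counts, genes were kept with filterByExpr (minimum count 10, total 15), scaled by TMM and fitted over 4 groups with edgeR 4.0.16 (R 4.3.3, quasi-likelihood test, Benjamini-Hochberg threshold 0.05). SE is the log2 fold change over the square root of F, and CPM are TMM-scaled. The fit was tested on simulated data. Alternatives used DESeq2 1.42.0, limma 3.58.1, other scalings, filters, covariates and libraries. Symbols matched 52403 of 52550 identifiers, GC content came from GENCODE transcripts, and promoters came from RefSeq GRCm38.p6.

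Genes were named where they were called, averaged at least 1 CPM in each region and were not predicted: the 10 largest differences each way, the 10 smallest p, up to 3 per list, arsenic genes in every case, genes seen in 1 region, and list members named for their role. A few genes that this rule names are not reported here. The comparison, lists and covariates were chosen with earlier results of these data known.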

Additional observations from a re-analysis of the deposited data

Results flagged for a closer look

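The difference itself flagged 2172 genes, by the interaction test. Among genes named above, 9 passed in both regions with opposite signs, with differences of -2.50 for Bcorl1, -1.89 for Gdf15, -1.05 for Kremen1, -1.80 for Lrfn3, -1.10 for Pias4, -0.87 for Scnn1a, -1.70 for Slc16a13, -1.17 for Srsf9 and -0.88 for Trip10. In each the cecum effect was negative and the ileum effect positive. The call of Scnn1a was lost with all 27 libraries in the fit.

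In 18 of 444 sets of a gene and a group, 1 library lay far from the others of its group, where chance flags about 1 set in 20. Cecum arsenic library 14 was the highest for Abcc2 (8.31 CPM), Nupr1 (47.6 CPM) and Slc7a9 (14.6 CPM) and the lowest for Igf2bp2 (61.2 CPM). Cecum arsenic library 15 was the highest for Acaa2 (206 CPM) and the lowest for Dnajb5 (13.6 CPM) and Hspb8 (21.6 CPM). Cecum arsenic 13 was the highest for Cry1 (29.3 CPM), and cecum arsenic 12 for Pias4 (39.5 CPM). Cecum control 2 was the highest for Hspb1 (42.2 CPM) and Synpo2 (116 CPM), and cecum control 4 for Abcc2 (4.48 CPM) and Lrrc8e (28.6 CPM). Ileum arsenic 15 was the highest for Abcc2 (487 CPM). Ileum control 3 was the highest for Adm (3.20 CPM), ileum control 5 for Chd4 (109 CPM) and ileum control 1 for Sema7a (22.9 CPM), and ileum control 2 was the lowest for Fth1 (1058 CPM).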

How the results depend on the processing

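The count of 2172 was 1383 with no filter, 344 with the smooth muscle score as a covariate, 1335 without cecum arsenic 14 and ileum arsenic 14 and 15, and 1241 to 2687 when 1 library was left out. Libraries with equal numbers were not treated as pairs, since the labels name no shared animal and their deviations correlated at -0.122 to 0.27 over 8 pairs. Arsenic 13, 14 and 15 were over 0.1, and 3 of 8, arsenic 12, 13 and 14, correlated best with their own number. The replicate block as a fixed term gave 1142 calls and as an estimated correlation 2344. Of 111 genes named, 73 kept their result with the fixed term and 98 with the estimated correlation. The cecum count of 2022 was 3972 under limma voom with weights per group, 3449 with the clock score, 1092 with the muscle score and 1141 to 2648 when 1 library was left out. The ileum count of 3051 was 2091 under limma voom with weights per group, 1903 with the muscle score and 1876 to 3421 when 1 library was left out. DESeq2 called 2655 differences, 2140 of them shared. The difference of Aqp3, called in no fit, was 0.02 under voom, 0.037 and 0.027 with the fixed and estimated block, from -0.61 to 0.234 when 1 library was left out (the second without ileum arsenic 15), 0.214 without ileum arsenic 14 and 15 and 0.431 without the 3 libraries, and that of Nqo1 was 0.009 with the muscle score. Where no value above shows it, the cause was not tested. Genes near 1 CPM are limited by depth.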
